A study of Mus musculus with 17 samples.

Results

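The guanylate-binding proteins (GBPs) and immunity-related GTPases (IRGs) are large GTPases whose genes respond to interferon-gamma (IFN-γ). Their transcripts were followed in hearts with a muscle-restricted defect of mitochondrial DNA (mtDNA) replication. The 10 genes were chosen by name: Gbp2, Gbp3, Gbp4, Gbp5, Gbp6, Gbp7, Gbp9, Irgm1, Igtp and Iigp1. All 10 were present among the 56748 genes of the count table, and all 10 had enough counts to be tested beside 16195 genes in all. The study sequenced poly(A)-selected RNA from whole mouse hearts, 1 library per mouse, in 9 Polg hMut animals (denoted hMut 1 to hMut 9) and 8 controls (denoted Ctrl 1 to Ctrl 8). Polg hMut mice were homozygous for a conditional Polg allele (Polg iMut/iMut) and carried 1 copy of Ckmm-cre, a Cre recombinase driven by the muscle creatine kinase promoter. In muscle cells, Cre removed a floxed wild-type Polg cassette, so that a proofreading-deficient mtDNA polymerase was made from the endogenous locus. In cells without Cre, the wild-type cassette stayed in use. The aged cohort was 12 to 16 months old. The paper names C57BL/6N for the embryonic stem cells and for colony breeding, and states no background for the sequenced mice themselves. The labels give the controls only as Ctrl, without the alleles of each mouse, and give neither the sex nor the exact age of any mouse.

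GBPs and IRGs are part of cell-autonomous immunity. IFN-γ, released mainly by T and NK cells, binds its receptor (Ifngr1 and Ifngr2), the kinases Jak1 and Jak2 pass the signal on, and target promoters are reached both directly and through the transcription factor Irf1. The GTPases made in response coat vacuoles that hold pathogens, recruit ubiquitin and autophagy adaptors, and help to open the vacuole or to activate inflammasomes. Irgm1 and Igtp (Irgm3) are regulatory IRGs on host membranes that keep effector IRGs such as Iigp1 (Irga6) inactive, and Irgm1 is also linked to mitochondrial quality control. In the healthy heart the genes are active at a low level in several cell types, endothelial cells and macrophages included.

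The direct arm of IFN-γ signalling acts through a palindrome called GAS (TTC, any 3 bases and GAA), while Irf1 and other interferon regulatory factors bind repeats of GAAA, here searched on both strands as the core of the interferon-stimulated response element (ISRE), a GAAA, any 2 bases and a GAAA (read on the other strand as TTTC, any 2 bases and TTTC). RefSeq promoter sequences of 300 bases, from 250 bases before to 50 after the gene start, were at hand for 6 of the 10 genes (Gbp2, Gbp3, Gbp5, Gbp7, Irgm1 and Igtp). Entries were missing for Gbp4, Gbp6, Gbp9 and Iigp1. The stretches below are shown because they hold the letters of the ISRE core, by which interferon signals reach many of these genes. Each is read 5′ to 3′ on the strand of its gene, with ISRE cores in capitals, and was placed on GRCm39 by an exact match found once on its chromosome.
Gbp2 (chr3:142326340-142326399, plus strand): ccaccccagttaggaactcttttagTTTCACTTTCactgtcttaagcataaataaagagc
Gbp3 (chr3:142265735-142265800, plus strand): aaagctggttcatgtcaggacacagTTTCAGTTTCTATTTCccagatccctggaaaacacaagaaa
Gbp5 (chr3:142202505-142202564, plus strand): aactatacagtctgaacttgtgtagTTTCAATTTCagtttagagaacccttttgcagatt
Gbp7 (chr3:142236019-142236078, plus strand): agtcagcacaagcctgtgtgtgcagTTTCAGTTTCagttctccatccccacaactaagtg
Irgm1 (chr11:48762237-48762302, minus strand): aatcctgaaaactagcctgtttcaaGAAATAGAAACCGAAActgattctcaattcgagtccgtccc
Igtp (chr11:58090323-58090382, plus strand): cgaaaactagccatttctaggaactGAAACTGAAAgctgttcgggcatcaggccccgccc

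All 6 genes had an ISRE core in a window, against 3.44% of all 32851 RefSeq promoter windows. Gbp3, with a second, more downstream window, had none in that one, so that 6 of 7 windows held the core. In 5 of the 6 genes the core lay within 59 bases of the RefSeq start, for example 34 to 25 bases before it in Igtp and 59 to 50 bases before it in Gbp2. In Gbp5 it lay farther out, 165 to 156 bases before the start. The cores of Gbp3 and Gbp7 (TTTCAGTTTC) and that of Igtp (GAAACTGAAA) are the same letters read from opposite strands. Gbp3 and Irgm1 each held 2 overlapping cores, one of which reads GAAATAGAAA, on the gene's own strand in Irgm1 and on the opposite strand in Gbp3. GAS motifs occurred in 3 of the 6 genes (2 in Gbp5, 2 in Gbp7 and 1 in Igtp), against 8.3% of all windows, and none overlapped an ISRE core. A match of letters describes the window and is not evidence of binding.

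Library totals were 32915159 to 46486964 counts, and the 10 genes had between 267 counts (Gbp6 in hMut 8) and 45152 counts (Iigp1 in hMut 6) in each library. Counting error was small beside the gap of hMut 6. Across the 7 controls without Ctrl 2, the SD was only 5.30% to 17.6% of the mean for the 10 genes. The part of counting error in that narrow spread was not tested. Levels are given as CPM (counts scaled to a common library total), adjusted between libraries by the trimmed mean of M-values (TMM). The targeted gene Polg ran from 27.1 to 47.2 CPM in Ctrl and from 47.0 to 65.1 CPM in hMut hearts, and was higher in hMut by 0.74 ± 0.10 on the log2 scale (SE, edgeR adjusted p = 0.000448). Every hMut heart except hMut 6 lay above every Ctrl heart for Polg. The cardiomyocyte markers were abundant in every library, with a summed level of 53964 to 64274 CPM in Ctrl and 54061 to 63234 CPM in 7 of the hMut hearts. These ranges overlapped through Ctrl 3 and hMut 2. Apart from Ctrl 3, the Ctrl hearts had 60165.5 CPM or more, and apart from hMut 2, these hMut hearts had 56943.4 CPM or less. The other two hMut hearts, hMut 6 and hMut 9, had 44474 and 41893 CPM. Those 2 libraries stood apart across the transcriptome: 31.1% of all genes tested in hMut 6 and 27.9% in hMut 9 lay above every Ctrl heart, against 10.9% to 17.7% in the other hearts (14.7% in hMut 4). For this reason, results are given with and without them.

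The central comparison asked whether the GBP and IRG genes were higher in hMut than in Ctrl hearts, and how many hearts carried any rise. In a single heart, hMut 6, all 10 genes lay far above every other heart in the study. None of the other 8 hMut hearts showed a comparable rise, and in hMut 8, 8 of 10 genes lay under every Ctrl heart, against 14.4% of all genes tested. The fitted group difference was positive for 10 of 10 genes, and none passed the test (edgeR quasi-likelihood, adjusted p from 0.149 to 0.504). The share of all genes called higher in hMut by the same test was 3.48%. Before adjustment, 3 of the 10 genes had a p under 0.05 (Irgm1, Gbp3 and Gbp6). The share of all genes tested at that unadjusted level is not reported here. Without it, this count and those of the lists below are not read as an excess. By DESeq2 and limma-voom, which called 6.78% and 7.26% of the genes they tested as higher, the count of members was 0 as well, with 1 and 0 of 10 at an unadjusted p under 0.05. The 1 gene in DESeq2 was Iigp1, with a difference below 0 there (-0.62 on the log2 scale, DESeq2 adjusted p = 0.0776). DESeq2 replaced the count of hMut 6 as an outlier in 9 of the 10 genes, all but Gbp9, and without that replacement the difference of Iigp1 was 0.84 (DESeq2 adjusted p = 0.394). The median log2 fold change of the 10 genes was 0.83, against 0.0023 over all genes tested.

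**Figure D1:**
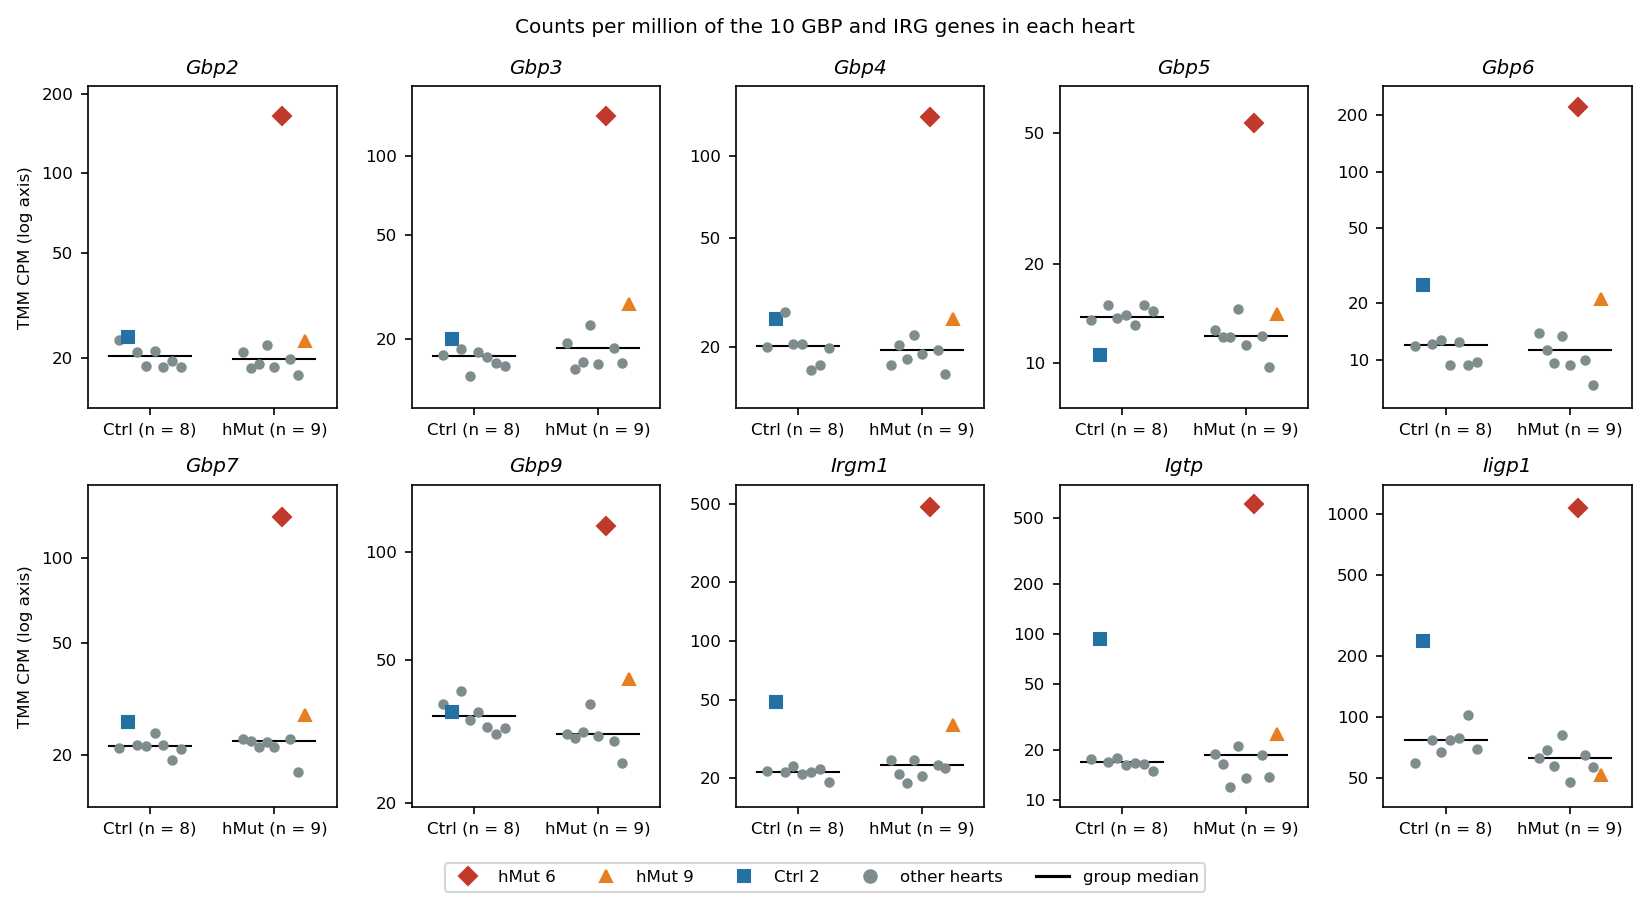
TMM-scaled CPM of each of the 10 genes on a log axis, 1 panel per gene and 1 symbol per heart (Ctrl n = 8, hMut n = 9), with the group median as a line. The diamond, hMut 6, is the highest heart in all 10 panels, and the square, Ctrl 2, is the highest Ctrl heart by a wide gap for Igtp, Iigp1, Irgm1 and Gbp6.

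Gbp2, Gbp3, Gbp5 and Gbp7 lie in a cluster on the plus strand of chromosome 3 in GRCm39, with Gbp2b between Gbp3 and Gbp2. Gbp2 (ENSMUSG00000028270, chr3:142326363-142343769) encodes a GBP that targets vacuoles and bacterial membranes. Its level was 18.4 CPM in the lowest, 20.3 in the median and 24.1 in the highest Ctrl heart, and 17.2, 19.8 and 164.6 CPM in the hMut hearts. The groups overlapped except for hMut 6, which was 7.98 times the Ctrl mean. The fitted difference was 0.81 ± 0.43 on the log2 scale (SE, edgeR adjusted p = 0.234), and -0.05 ± 0.07 without hMut 6 (edgeR adjusted p = 0.748).

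Gbp3 (ENSMUSG00000028268, chr3:142265787-142278970) was the gene with most hMut hearts above the controls. It stood at 14.5, 17.3 and 20.1 CPM in the lowest, median and highest Ctrl heart, and at 15.3, 18.5 and 142.3 CPM in hMut hearts. The 3 hearts above every Ctrl heart were hMut 6, hMut 9 at 27.3 CPM and hMut 4 at 22.5 CPM. The difference was 0.93 ± 0.41 (log2, SE, edgeR adjusted p = 0.169) in all hearts and 0.14 ± 0.11 without hMut 6 (edgeR adjusted p = 0.448).

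Gbp7 (ENSMUSG00000040253, chr3:142236103-142255910), known for binding autophagy and NADPH oxidase components, had 19.1, 21.5 and 26.0 CPM in Ctrl and 17.3, 22.4 and 140.4 CPM in hMut hearts (lowest, median and highest). Here hMut 9, at 27.7 CPM, lay just above the highest control. Its difference of 0.69 ± 0.37 (log2, SE, edgeR adjusted p = 0.237) became 0.01 ± 0.08 without hMut 6.
Gbp5 (ENSMUSG00000105504, chr3:142199739-142228105), which promotes NLRP3 inflammasome activity, had the smallest level per length of the 10 genes in Ctrl hearts. It stood at 10.6, 13.8 and 15.03 CPM in Ctrl and at 9.68, 12.0 and 53.4 CPM in hMut hearts, so that 8 of 9 hMut hearts lay within or under the Ctrl range. The difference was 0.31 ± 0.28 (log2, SE, edgeR adjusted p = 0.503), and -0.15 ± 0.08 without hMut 6 (edgeR adjusted p = 0.291).

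Gbp4, Gbp6 and Gbp9 belong to a second cluster, on the minus strand of chromosome 5. Gbp6 (ENSMUSG00000104713, chr5:105418568-105441564) showed the widest contrast among the GBPs. It had 9.32, 11.9 and 24.96 CPM in Ctrl and 7.32, 11.2 and 220.0 CPM in hMut hearts (lowest, median and highest), and hMut 6 was 17.2 times the Ctrl mean. The next highest hearts came from both groups, Ctrl 2 at 24.96 and hMut 9 at 21.1 CPM. The difference was 1.46 ± 0.66 (log2, SE, edgeR adjusted p = 0.174), and -0.09 ± 0.22 without hMut 6.
Reads of Gbp6 are not fully separable from those of its relatives. Of the 100-base windows in its GENCODE transcripts, 42.0% also occur in another family gene, mostly Gbp10, and 27.0% of its exonic bases lie in exons of Gm43302 on the same strand. Gbp7 shares 10.6% of its exonic bases with Gm43802 on the same strand. For the other 9 genes the share of such windows was at most 3.06% (Igtp with Irgm2).

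Gbp4 (ENSMUSG00000079363, chr5:105263633-105287452) stood at 16.4, 20.2 and 26.8 CPM in Ctrl and at 15.9, 19.6 and 138.7 CPM in hMut hearts. Only hMut 6 lay above the controls. Gbp9 (ENSMUSG00000029298, chr5:105225496-105287405), whose exons touch those of Gbp4 and Gbp8 for 1.11% of its bases, had 31.1, 35.0 and 41.1 CPM in Ctrl and 25.9, 31.2 and 118.5 CPM in hMut hearts. Of the 10 genes it had the smallest ratio in hMut 6, at 3.37 times the Ctrl mean, and 4 of 9 hMut hearts lay under every Ctrl heart. The differences were 0.66 ± 0.40 for Gbp4 and 0.27 ± 0.25 for Gbp9 (log2, SE, edgeR adjusted p = 0.290 and 0.504).

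For each IRG gene, as for Gbp6, the highest hMut heart was hMut 6 and the highest Ctrl heart was Ctrl 2. Irgm1 (ENSMUSG00000046879, chr11:48752795-48762510, minus strand) had 19.1, 21.6 and 48.8 CPM in the lowest, median and highest Ctrl heart and 18.9, 23.4 and 480.5 CPM in hMut hearts. hMut 6 was 19.3 times the Ctrl mean. The second highest heart was a control, Ctrl 2, followed by hMut 9 at 37.1 CPM. Irgm1 had the lowest adjusted p of the 10 genes, with a difference of 1.59 ± 0.67 (log2, SE, edgeR adjusted p = 0.149), and its difference without hMut 6 was -0.04 ± 0.18 (edgeR adjusted p = 0.914).

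Igtp (ENSMUSG00000078853, chr11:58090382-58098417, plus strand) had the largest ratio of the highest to the lowest heart among the 10 genes, 50.6 in hMut and 6.29 in Ctrl. Its level was 14.98, 16.9 and 94.3 CPM in Ctrl and 12.1, 18.8 and 611.9 CPM in hMut hearts, and hMut 6 alone made up 81.4% of the summed CPM of the 9 hMut hearts. The other 7 Ctrl hearts sat between 14.98 and 17.99 CPM, so the highest control was 5.61 times their mean. The fitted difference was 1.66 ± 0.85 (log2, SE, edgeR adjusted p = 0.223), 2.32 ± 0.88 without Ctrl 2 (edgeR adjusted p = 0.138) and -0.59 ± 0.35 without hMut 6 (edgeR adjusted p = 0.334).
Igtp overlaps Irgm2 on the same strand, and 3.79% of its exonic bases lie in exons of Irgm2.

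Iigp1 (ENSMUSG00000054072, chromosome 18), the effector GTPase of the group, had the highest level per length in Ctrl hearts. It stood at 59.9, 77.1 and 238.0 CPM in Ctrl and at 48.0, 62.8 and 1069.6 CPM in hMut hearts. Apart from hMut 6, the hMut hearts lay low: 4 of 9 were under every Ctrl heart, hMut 9 among them at 52.0 CPM. The difference changed direction with the hearts used, from 0.85 ± 0.64 in all (log2, SE, edgeR adjusted p = 0.397) to -0.64 ± 0.23 without hMut 6 (edgeR adjusted p = 0.122) and -0.27 ± 0.11 without hMut 6, hMut 9 and Ctrl 2 (edgeR adjusted p = 0.219).

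Per kilobase of gene length in Ctrl hearts, the order of the levels was Iigp1 (16.6 ± 10.1 CPM per kb, SD, n = 8), Igtp (13.1 ± 13.5), Gbp2 (8.20 ± 0.89), Gbp9 (6.79 ± 0.63), Gbp3 (5.26 ± 0.53), Irgm1 (4.28 ± 1.67), Gbp7 (3.92 ± 0.37), Gbp4 (2.78 ± 0.48), Gbp6 (2.15 ± 0.86) and Gbp5 (2.05 ± 0.21). The ranges over the Ctrl hearts overlapped for every pair of neighbours in this order.

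**Figure D2:**
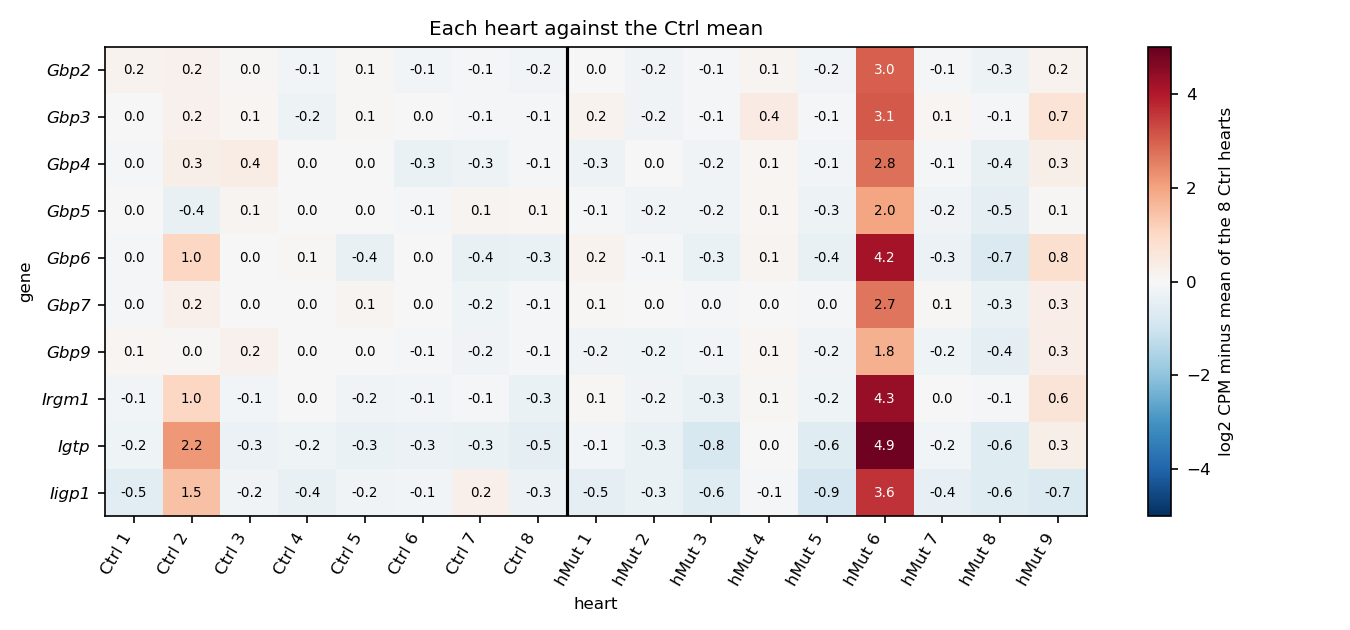
Difference in log2 CPM of each heart from the mean of the 8 Ctrl hearts, with 1 row per gene and 1 column per heart. The column of hMut 6 runs from 1.8 (Gbp9) to 4.9 (Igtp), while hMut 8 lies below 0 for all 10 genes and Ctrl 2 is high mainly in the IRG rows and Gbp6.

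Counted over the members, the high levels lay in 1 heart. In hMut 6, 10 of 10 genes lay above every Ctrl heart, against 31.1% of all genes tested in that heart. The size of the gap to the highest Ctrl heart placed 8 of the 10 genes among the top 200 of the 16195 genes and all 10 among the top 500. In hMut 9 the count was 3 of 10 (Gbp3, Gbp7 and Gbp9), against 27.9% of all genes, a share close to that background. In hMut 4 it was 1 of 10 (Gbp3), against 14.7%. The remaining 6 hMut hearts had 0 of 10.
At the other end, hMut 8 had 8 of 10 genes under every Ctrl heart, against 14.4% of all genes tested. The mean over the 10 genes was -0.40 on the log2 scale from the Ctrl mean in that heart, against 3.22 in hMut 6 and 0.29 in hMut 9.

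The ratios in hMut 6 differed between the genes. The 3 IRG genes stood at 11.1 to 23.1 times the Ctrl mean, and the 7 GBP genes at 3.37 to 17.2 times, with a median of 6.66. Gbp6, the GBP with the highest ratio, came after Igtp and Irgm1 and before Iigp1. Ctrl 2 was the highest control for all 3 IRG genes. Against the mean of the other 7 controls the order of the genes was the same. The ratios were then 14.04 to 36.4 for the IRG genes and 3.39 to 19.9 for the GBP genes. Against the highest Ctrl heart the ratios were 4.49 to 9.85 and 2.89 to 8.81, and the order changed. Gbp6, Gbp3 and Gbp2 then lay above Igtp, and all GBP genes except Gbp5 and Gbp9 lay above Iigp1.

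A control heart also departed from its group. In Ctrl 2, 7 of 10 genes lay above the other 7 Ctrl hearts, against 9.04% of all genes tested. Igtp was 5.61 times, Iigp1 3.12 times, Irgm1 2.27 times and Gbp6 2.26 times the mean of those hearts, and these 4 genes were among the top 15 of all 16195 genes by their gap to the next highest control.
The remaining GBP genes did not share this pattern. Gbp2, Gbp3 and Gbp7 lay above the other controls, but at no more than 1.22 times their mean. Gbp4 and Gbp9 lay within the Ctrl range, and Gbp5, at 0.75 times, was the lowest of all Ctrl hearts. In the other 7 controls, tested in the same way, between 0 and 3 of the 10 genes lay above the rest, against 10.03% to 17.6% of all genes. With Ctrl 2 left out, 6 of 10 genes in hMut 9 lay above every Ctrl heart (Gbp3, Gbp6, Gbp7, Gbp9, Irgm1 and Igtp), against 28.7% of all genes tested. The counts in hMut 1, hMut 4 and hMut 7 were then 4, 4 and 3 of 10, against 12.0%, 15.7% and 18.6% of all genes tested. Some of these margins were small. Irgm1 in hMut 7, for example, stood at 23.44 CPM, against 23.18 CPM in Ctrl 4, the highest of the 7 controls.
The 3 genes with the widest such gaps in Ctrl 2, named after their values were seen, were Gm4841 at 72.9 CPM (0.48 to 1.49 in the other controls) and BC023105 at 55.4 CPM (0.74 to 2.46), both on chromosome 18 like Iigp1, and Gm12185 on chromosome 11 at 12.4 CPM (0.39 to 0.84). In hMut 6 the same genes stood at 457.6, 282.4 and 136.6 CPM. The labels give neither strain nor alleles for Ctrl 2, and the part of this mouse's genotype in these levels was not tested.

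**Figure D3:**
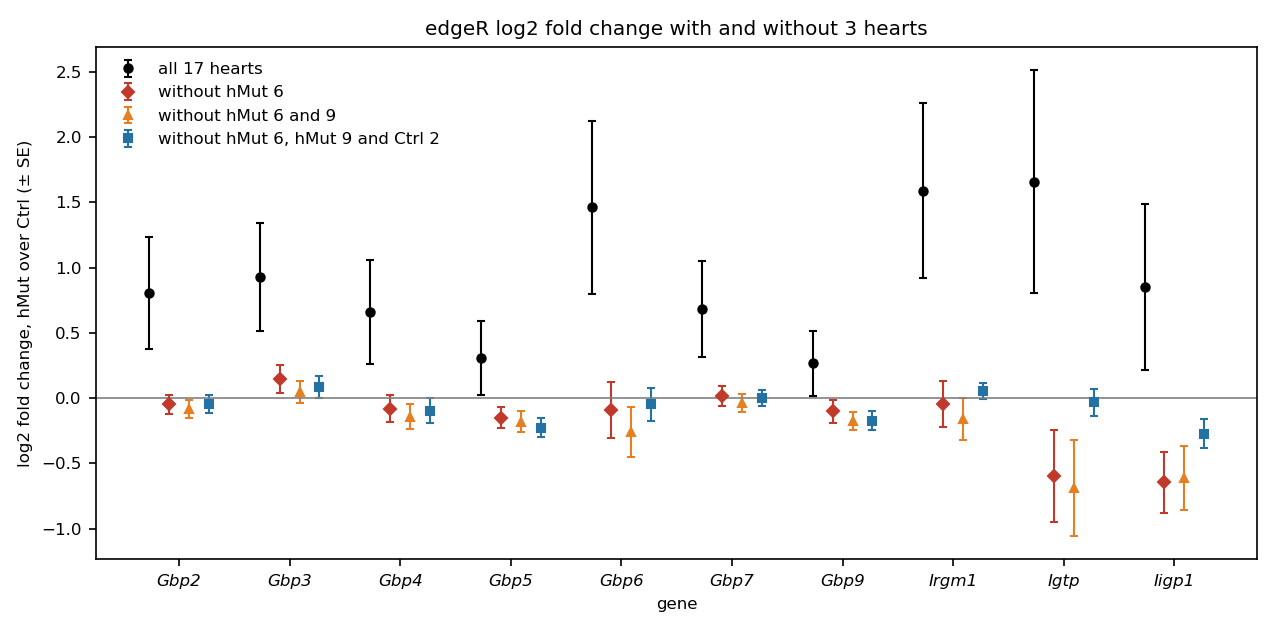
edgeR log2 fold change of hMut over Ctrl for each gene, with bars of 1 SE, in all 17 hearts and after leaving out hMut 6, then hMut 9, then Ctrl 2. All 10 points lie above 0 with all hearts and within -0.69 to 0.14 in the other fits.

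Without hMut 6, the differences of the 10 genes ran from -0.64 to 0.14 on the log2 scale and 2 of 10 were positive (edgeR adjusted p from 0.122 to 0.933). Without both hMut 6 and hMut 9 they ran from -0.69 to 0.05 with 1 of 10 positive, and with Ctrl 2 also left out from -0.27 to 0.08 with 3 of 10 positive. None passed the test in any of these fits. A two-sided exact permutation test that used each of the 24310 ways to divide the hearts, run for every gene, gave adjusted p-values of 0.425 to 0.987 for the mean log2 CPM and of 0.279 to 0.944 for the mean rank. By mean rank, 5 of the 10 genes were lower in hMut (Gbp2, Gbp4, Gbp5, Gbp9 and Iigp1), Iigp1 by most, at -4.25 ranks (exact permutation p = 0.0927, adjusted p = 0.279).

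The other genes of both families were counted in the same way. Of 13 other GBP and IRG names, 12 were in the table and 10 could be tested, with 0 called in either direction by edgeR, DESeq2 or limma (5 of 10 at an unadjusted p under 0.05 in edgeR) and a median log2 fold change of 1.10. In hMut 6, 9 of these 10 lay above every Ctrl heart, all but Irgq, a divergent member, at 42.5 CPM within the Ctrl range of 35.4 to 47.0. The count was 4 of 10 in hMut 9 and 1 of 10 in hMut 4, and in Ctrl 2, set against the other 7 controls, it was 5 of 10. The shares of all genes tested were 31.1% in hMut 6, 27.9% in hMut 9, 14.7% in hMut 4 and 9.04% in Ctrl 2.
Irgm2, the third regulatory IRG, stood at 440.1 CPM in hMut 6, against 26.7 to 86.5 CPM in Ctrl. Its promoter window equals that of Igtp in 58 of the 60 bases shown above. Gbp10 reached 138.4 CPM (Ctrl 0.35 to 9.55), Gm12250 (Irgb10) 98.8 (1.296 to 14.6), Tgtp2 91.0 (5.88 to 8.64), Ifi47 48.6 (3.95 to 6.63), Tgtp1 23.8 (1.59 to 3.28) and Gbp8 12.9 (0.30 to 0.92).
The highest control for Irgm2, Gbp10, Gm12250, Tgtp1 and Tgtp2 was again Ctrl 2. Genes 9930111J21Rik1 and 9930111J21Rik2 stood at 6.09 and 19.7 CPM in hMut 6, the smallest ratios after Irgq, at 2.23 and 2.01 times the Ctrl mean. Gbp2b and Gbp11, which were below the count filter, stood at 12.1 and 3.72 CPM in hMut 6 and at no more than 0.17 and 0.14 CPM in Ctrl hearts.

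The ligand and its signalling genes were read in the same hearts. Ifng itself had 54 counts (1.28 CPM) in hMut 6 and at most 2 counts in any Ctrl heart, which is at least 13.4-fold higher than the level of 3 counts per library. In hMut 9 it had 1 count. The receptor and kinase genes in hMut 6 stayed within 0.74 to 1.35 times their Ctrl means: Ifngr1 was 78.1 CPM in hMut 6 (Ctrl 51.6 to 66.0), Ifngr2 122.2 (149.4 to 174.3), Jak1 158.1 (138.3 to 173.0) and Jak2 48.3 (34.5 to 39.5).
Irf1 and an inhibitor downstream of them stood higher in hMut 6. Irf1 had 75.4 CPM (Ctrl 18.9 to 25.7) and the feedback inhibitor Socs1 5.40 CPM (0.22 to 0.92).
As a list, 16 of 17 signalling genes were tested and 0 were called in either direction by edgeR (4 at an unadjusted p under 0.05), with a median log2 fold change of 0.25. DESeq2 and limma called 1, Ptpn11, higher. The smallest adjusted p-values were those of Ptpn11, a phosphatase of the pathway (0.15 ± 0.05, edgeR adjusted p = 0.0760), Ifngr1 (0.18 ± 0.07, 0.104) and Socs1 (1.10 ± 0.46, 0.149).

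Other IFN-γ target genes and genes typical of type I interferon were compared with the 10 GTPase genes heart by heart, with no test between lists. Of 20 other IFN-γ targets tested, 0 were called by edgeR (8 at an unadjusted p under 0.05), 1 by DESeq2 and 1 by limma (Icam1, higher). By heart, 18 of 20 lay above every Ctrl heart in hMut 6, 14 in hMut 9 and 2 in hMut 4, against 31.1%, 27.9% and 14.7% of all genes tested. The 3 smallest adjusted p-values were those of Icam1, an adhesion molecule (0.51 ± 0.18, edgeR adjusted p = 0.0955), Fcgr1, an Fc receptor (1.08 ± 0.39, 0.103), and the chemokine Cxcl10 (2.03 ± 0.79, 0.126).
Of 21 type I effector genes tested, 0 were called by edgeR (10 at an unadjusted p under 0.05) and by limma, and 1 by DESeq2 (Oas3, higher). By heart, 21 of 21 lay above every Ctrl heart in both hMut 6 and hMut 9, and 15 of 21 did so in hMut 4. The GBP and IRG counts were 3 of 10 in hMut 9 and 1 of 10 in hMut 4. The shares of all genes tested were 31.1% in hMut 6, 27.9% in hMut 9 and 14.7% in hMut 4. The GBP and IRG counts depend on Ctrl 2. With that heart left out they were 6 of 10 in hMut 9 and 4 of 10 in hMut 4, against 28.7% and 15.7% of all genes tested. The type I counts without Ctrl 2 are not given here. The median difference of this list from the Ctrl mean was 2.42 in hMut 6, 1.16 in hMut 9 and 0.50 in hMut 4 on the log2 scale. For the GBP and IRG genes it was 3.03, 0.32 and 0.10. Irf7, the master regulator of type I responses, stood at 220.4 CPM in hMut 6, 70.8 in hMut 9 and 29.6 in hMut 4, with 10.9 to 17.6 in Ctrl (1.72 ± 0.55, edgeR adjusted p = 0.0727). Oas3 and Ifit1 followed it by adjusted p (1.83 ± 0.62 and 1.59 ± 0.62, edgeR adjusted p = 0.0882 and 0.128).

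Among 21 tested genes of proteins that GBPs and IRGs work with, such as inflammasome, ubiquitin and autophagy conjugation factors, edgeR called 1 higher and 0 lower, DESeq2 2 higher (Sqstm1 and the ubiquitin ligase Rnf213) and limma 2 higher and 2 lower (the inflammasome genes Aim2 and Pycard). Of all 16195 genes, limma called 2081 in either direction, 1175 of them higher. Sqstm1, the autophagy adaptor p62, had 406.6 to 527.1 CPM in Ctrl and 451.5 to 818.6 CPM in hMut hearts, with 8 of 9 above every Ctrl heart (0.54 ± 0.10, edgeR adjusted p = 0.00551). Sqstm1 was called by edgeR without hMut 6 and hMut 9 as well, together with Aim2, which was lower. In the 2 hearts left out Aim2 lay above every Ctrl heart, at 6.49 CPM in hMut 6 and 3.85 in hMut 9 (Ctrl 2.17 to 3.04). The other 7 hMut hearts lay under every Ctrl heart for Aim2, at 1.31 to 2.15 CPM. Sqstm1 was high in hMut 6 (756.2 CPM) and hMut 9 (818.6 CPM), and most of the 8 hearts above the controls for Sqstm1 had 0 of 10 GTPase genes above them.

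**Figure D4:**
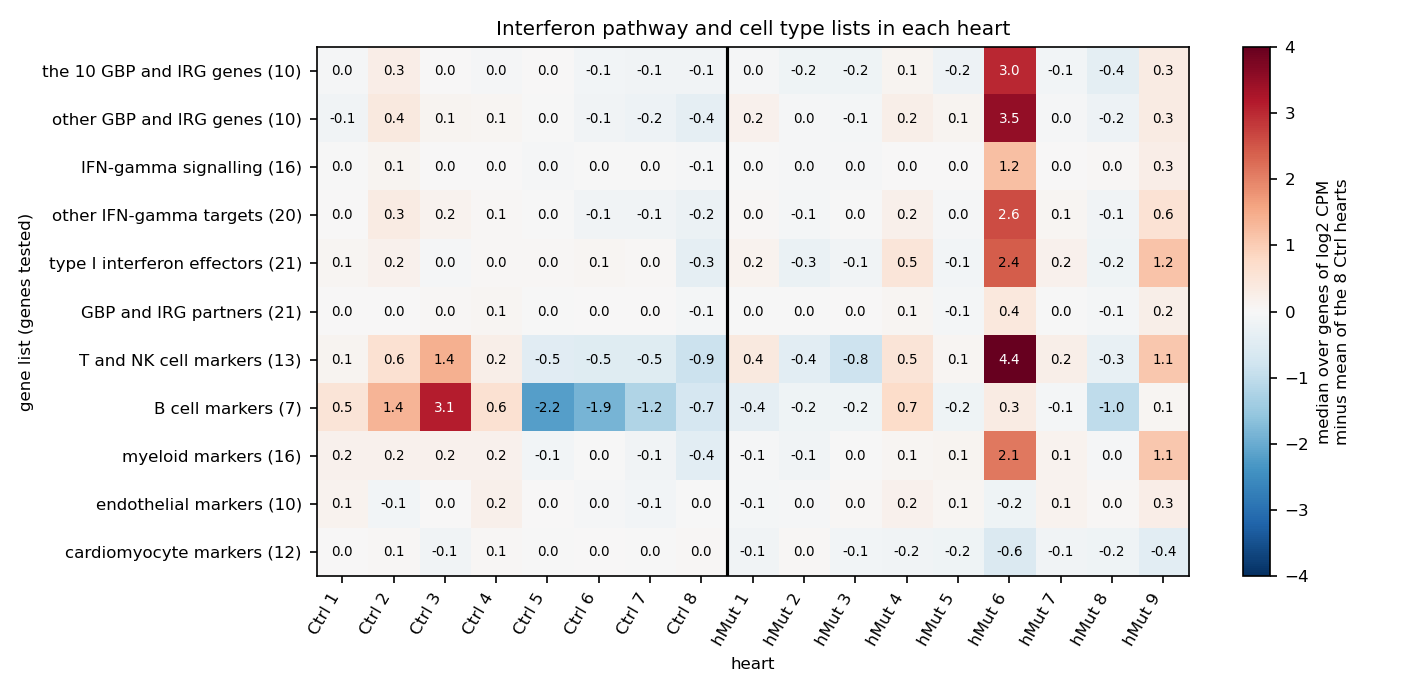
Median over the tested genes of each list of the difference in log2 CPM from the Ctrl mean, 1 column per heart. In hMut 6 the interferon, T and NK cell and myeloid lists are high together, in hMut 9 the type I and myeloid lists exceed the GBP and IRG genes, and B cell markers peak in Ctrl 3.

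Immune cell markers moved with the GBP and IRG genes in hMut 6. In bulk tissue, a change in the number of cells of a type and a change in the RNA per cell cannot be told apart. The summed level of the 22 T and NK cell markers was 159.8 CPM in hMut 6, 17.9 in hMut 9, 4.71 to 11.2 in the other 7 hMut hearts and 4.62 to 22.9 in Ctrl, and no marker was at 0 in every library. Of 13 tested, 12 lay above every Ctrl heart in hMut 6, against 31.1% of all genes tested. Over the groups, 0 were called by edgeR, DESeq2 or limma (6 at an unadjusted p under 0.05 in edgeR). Cd8a had 25.9 CPM in hMut 6 (Ctrl 0.09 to 2.25, 2.59 ± 1.06, edgeR adjusted p = 0.141), Nkg7 10.9 (0.11 to 1.02) and Cd3e 8.60 (0.11 to 0.98).
The highest Ctrl heart for T and NK markers was Ctrl 3, in which 11 of 13 lay above the other controls. In that heart 3 of the 10 GTPase genes (Gbp4, Gbp5 and Gbp9) did so, against 17.6% of all genes tested, and their median difference was 0.01 on the log2 scale. Ctrl 2, the control with high IRG genes, had a T and NK sum of 11.8 CPM.
Myeloid markers summed to 1672.6 CPM in hMut 6 and 795.7 in hMut 9, against 366.4 to 471.6 in the other hMut hearts and 286.8 to 436.4 in Ctrl. Of 16 tested, 15 lay above every Ctrl heart in hMut 6 and 15 in hMut 9, against 31.1% and 27.9% of all genes tested. Over the groups, 0 were called by edgeR, DESeq2 or limma (8 at an unadjusted p under 0.05 in edgeR). The complement genes C1qa, C1qb and C1qc had the smallest adjusted p-values (0.113, 0.127 and 0.154 by edgeR) with differences of 0.70 ± 0.26, 0.73 ± 0.29 and 0.61 ± 0.26.
B cell markers, 7 of 7 tested, had 0 calls by the same tools (0 at an unadjusted p under 0.05 in edgeR) and a median of -0.95, with their summed level highest in Ctrl 3 (190.4 CPM, 50.9 in hMut 6), and the lowest adjusted p-values included those of Ighd and Ms4a1 (0.200 and 0.219 by edgeR). Endothelial markers summed to 1365.4 CPM in hMut 6, under the Ctrl range of 1460.4 to 1798.9, and edgeR and DESeq2 called 1 of 10 higher, the VEGF receptor Kdr (0.39 ± 0.10, edgeR adjusted p = 0.0407), which edgeR did not call without hMut 6 and hMut 9. Limma called Kdr and the junction genes Pecam1 and Cdh5 higher.
Cardiomyocyte markers had 0 of 12 called by edgeR (7 at an unadjusted p under 0.05) and 4 and 6 called lower by DESeq2 and limma. Over all genes, edgeR called 185 of 16195 lower. DESeq2 called 1524 of 14922 genes in either direction, 1012 of them higher, and limma called 2081 of 16195, 1175 of them higher. Myh6, Tnni3 and Pln had the lowest adjusted p (-0.34 ± 0.10, -0.43 ± 0.13 and -0.35 ± 0.11, edgeR adjusted p = 0.0601, 0.0629 and 0.0689). Of the atrial, adipocyte and lymph node stroma markers, edgeR and limma called 1 of 4 tested lower, the chemokine Ccl21a (-0.79 ± 0.22, edgeR adjusted p = 0.0466), again not called by edgeR without hMut 6 and hMut 9. DESeq2, which tested 9, called Ccl21a lower and the chemokine Cxcl13 higher. The part of cell makeup in the level of the GBP and IRG genes was not tested.

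The genes most like the mean of the 10 members over the 17 hearts, by Pearson's r of log2 CPM, included Psmb8 (0.989), Tap1 (0.985), H2-T23 (0.984), Irgm2 (0.984), Samhd1 (0.983), Tgtp2 (0.974) and Parp14 (0.973). Psmb8 and Tap1 encode an immunoproteasome subunit and the peptide transporter of antigen presentation. These values rest largely on hMut 6, a single point far from the rest. Over the 15 hearts without hMut 6 and hMut 9, those most alike included Irgm2 (0.945), BC023105 (0.909), Erap1 (0.897), Gm12185 (0.888), Psmb8 (0.868), Gm12250 (0.842) and Mgl2 (0.841), so that Irgm2 and Psmb8 were in both lists. There Ctrl 2 was the far point.
Between members, r over the 45 pairs had a median of 0.948 in the 17 hearts and of 0.462 in the 14 hearts without hMut 6, hMut 9 and Ctrl 2 (range 0.0057 to 0.798).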

How the data were processed

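Whole-heart RNA from 17 mice was sequenced as 1 poly(A)-selected library per mouse, in 2 groups given by the labels. The authors removed poor reads with fastp, aligned with HISAT2 2.2.1 to mm39/GRCm39 and deposited raw gene counts made with featureCounts 2.0.6; the annotation release and the strand setting are not given in the sources used here, so reads of overlapping and antisense genes may be shared. Gene lengths were deposited beside the counts. The mtDNA mutation burden of each heart was not used here. Counts were kept by filterByExpr (16195 genes) and tested with edgeR 4.0.16 (TMM, quasi-likelihood test, Benjamini-Hochberg adjustment over all genes tested, threshold 0.05) in R 4.3.3. Log2 CPM used a prior count of 2, and SD and SE are named beside values. DESeq2 1.42.0, limma 3.58.1 with sample quality weights, other scalings and filters, a sex covariate read from Xist counts, exact permutation tests and fits without single hearts were alternatives. A heart carried the rise where over 50% of the members exceeded every Ctrl heart. The fits were tested on simulated data. RefSeq promoters were searched for motifs, and GENCODE vM39 transcripts for shared 100-base windows. A level of 3 counts per library was the floor for genes absent from Ctrl, which covers counting error only. Nothing states more than 1 library per mouse, and p-values measure the spread between these mice. No 2 libraries were copies (Spearman correlation over genes from 0.906 to 0.926 in 136 pairs).

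Named were all members, the other family genes, for each further list the genes called (at most 3 by adjusted p) or else the 3 with the smallest adjusted p, the core of IFN-γ signalling, Polg, and the 8 genes most like the members over 17 and over 15 hearts. The members and lists were chosen with earlier results of these data known. Protein sequences were not used here, and values of some named genes are not reported here.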

Additional observations from a re-analysis of the deposited data

Results flagged for a closer look

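Within each group, the highest and the lowest heart were compared with their nearest neighbour as a share of the whole range (Dixon's ratio, critical value 0.493 for 9 and 0.526 for 8 hearts). The values were CPM without a log. Of 20 groups, 15 passed. A chance share of about 5% would hold only for normal and independent values, so the 15 are not set against it. In hMut, the heart that stood out was hMut 6 for all 10 genes, on the high side, with ratios of 0.959 for Gbp2, 0.906 for Gbp3, 0.923 for Gbp4, 0.888 for Gbp5, 0.935 for Gbp6, 0.916 for Gbp7, 0.801 for Gbp9, 0.961 for Irgm1, 0.978 for Igtp and 0.967 for Iigp1. In Ctrl, it was Ctrl 2 for 5 genes, high for Gbp6 (0.785), Irgm1 (0.861), Igtp (0.962) and Iigp1 (0.762) and low for Gbp5 (0.549). The genes were measured in the same libraries, so these ratios are not independent of each other.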

How the results depend on the processing

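No member was called under any alternative run, and the sign was positive for all 10 genes in edgeR robust, both other scalings, both other filters, the sex covariate, DESeq2 without outlier replacement and every fit that kept hMut 6 and left out 1 heart. The sign turned in fits that removed, replaced or down-weighted hMut 6 and, for Iigp1, under the replicate block. DESeq2 replaced the count of hMut 6 in 9 members (all but Gbp9) and that of Ctrl 2 in Igtp, and gave -0.046 for Gbp2, -0.078 for Gbp4, -0.14 for Gbp5, -0.10 for Gbp6, -0.057 for Irgm1 and -0.62 for Iigp1. With a limma weight of 0.166 for hMut 6 and 0.299 for hMut 9, the values were -0.0098 for Gbp2, -0.019 for Gbp4, -0.12 for Gbp5, -0.12 for Gbp6, -0.094 for Gbp9, -0.0395 for Irgm1, -0.34 for Igtp and -0.52 for Iigp1. Leaving out hMut 6 turned 8 genes, and over the fits without 1 heart each their values ran from -0.047 to 0.90 for Gbp2, from -0.0795 to 0.75 for Gbp4, from -0.15 to 0.38 for Gbp5, from -0.0898 to 1.67 for Gbp6, from -0.10 to 0.34 for Gbp9, from -0.042 to 1.81 for Irgm1, from -0.59 to 2.32 for Igtp and from -0.64 to 1.19 for Iigp1; the lowest was without hMut 6 in all 8, and the highest was without Ctrl 2 in Gbp6, Irgm1, Igtp and Iigp1. Leaving out hMut 6 and hMut 9 gave -0.082 for Gbp2, -0.14 for Gbp4, -0.18 for Gbp5, -0.26 for Gbp6, -0.038 for Gbp7, -0.18 for Gbp9, -0.16 for Irgm1, -0.69 for Igtp and -0.61 for Iigp1, and leaving out Ctrl 2 as well, chosen after seeing the data like the DESeq2 fit without replacement, gave -0.047 for Gbp2, -0.096 for Gbp4, -0.23 for Gbp5, -0.046 for Gbp6, -0.17 for Gbp9, -0.033 for Igtp and -0.27 for Iigp1. The median log2 fold change of the members was -0.05 by DESeq2, -0.07 by limma, -0.08 without hMut 6, -0.17 without hMut 6 and hMut 9, 0.18 under the block and 0.90 without Ctrl 2.

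The hearts with most members above every Ctrl heart were 1 in the main count, 2 with CPM of raw totals (hMut 9 added), 3 where 1 member sufficed, and 0 to 2 when 1 heart was left out (0 without hMut 6, 2 without Ctrl 2). Genes called over the whole table numbered 749, and 1524 by DESeq2, 1540 by DESeq2 without replacement, 2081 by limma, 463 with no filter, 431 without hMut 6 and hMut 9, 329 without Ctrl 2 also, and 395 to 1792 when 1 heart was left out (395 without hMut 5, 1792 without hMut 2). The replicate numbers did not pair the hearts: the correlation of same-numbered hearts ran from -0.23 to 0.34, over 0.1 in 1 of 8 pairs. The replicate block gave 195 calls and -0.11 for Iigp1. The causes of these shifts were not tested.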
